A study of Mus musculus with 38 samples.

Results

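The prefrontal cortex (PFC) and the hypothalamus (Hypo) of wild-type (WT) mice were compared gene by gene in 18 of the 38 RNA-seq libraries of the series. The libraries were chosen by their labels alone, as those named WT in either region: 10 PFC libraries (5 male, 5 female) and 8 Hypo libraries (4 male, 4 female). They came from 14 adult mice of the FVB/NJ strain, and 4 of these mice (males 245, 251, and 403 and female 262) gave both regions. The WT mice were littermates of Ube3a2X mice, which carry extra copies of Ube3a as a homozygous transgene, and the 20 libraries of Ube3a2X mice (10 per region) were used here only to repeat the regional comparison in other animals. After cervical dislocation the Hypo was lifted with tweezers from the ventral surface of the brain, whereas the PFC was punched from coronal sections. RNA was purified with the RNeasy Mini kit for the Hypo and the Micro kit for the PFC, and 1000 ng of Hypo RNA and 500 ng of PFC RNA entered the stranded mRNA libraries. Dissection, kit, and input therefore follow the region in every library, and their part in any difference below cannot be told apart from that of the region.

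The PFC is a layered cortex. Most of its neurons are glutamatergic projection neurons that load vesicles with the transporter Slc17a7 (VGLUT1) and owe their identity to transcription factors such as Tbr1 and the Neurod family, and a smaller class of GABAergic interneurons arrives from the ventral forebrain. The Hypo is a mosaic of small nuclei around the third ventricle. Its neurons are marked by homeobox and other developmental factors, use Slc17a6 (VGLUT2) or GABA, and release peptides that govern water balance, feeding, sleep, growth, and reproduction, in part through the pituitary that hangs below it. In bulk tissue, fewer cells of a type and less RNA per cell cannot be told apart, so each difference below is one of RNA level in the dissected piece.

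Reads counted on genes numbered 46.2 to 69.1 M per PFC library (median 54.2 M) and 39.0 to 70.6 M per Hypo library (median 66.0 M). Of 54165 genes in the table, 21334 passed the filter on low counts and were tested. The sex labels held in all 18 libraries: Xist, the RNA that silences an X chromosome, lay between 430 and 1280 CPM (per-million counts, scaled by TMM factors) in the 9 female libraries and did not exceed 0.212 CPM in a male one, and the Y-linked gene Ddx3y was not detected in any female and lay between 86.7 and 148 CPM in the males. The region labels held as well: Tbr1, of cortical neurons, had at least 143 CPM in each PFC and at most 4.77 CPM in each Hypo library, and Nkx2-1, of hypothalamic neurons, at most 0.0856 and at least 22.3 CPM. None of the lists used here tells the PFC from other cortical areas. The RNA integrity number (RIN) ranged from 6.8 to 8.9 (median 7.8) over the PFC and from 6.8 to 9.3 (median 8.95) over the Hypo libraries (exact permutation test within sex, two-sided, adjusted p = 0.0408 over 12 quality measures). Correctly stranded reads made up 92.5 to 95.6% of PFC libraries and 95.7 to 99.0% of Hypo libraries, without overlap (exact permutation test, adjusted p = 0.000756). AT dropout, the shortfall of reads from AT-rich sequence, was 15.8 to 21.1 (median 18.8) in the PFC and 18.3 to 23.4 (median 21.4) in the Hypo (exact permutation test, adjusted p = 0.0283), and the ratio of 5′ to 3′ coverage 0.362 to 0.725 (median 0.447) and 0.489 to 0.943 (median 0.751; exact permutation test, adjusted p = 0.0348). Hypo female 471 stood apart from the other 7 Hypo libraries, with the fewest counted reads (39.0 M), the lowest share of correctly stranded Hypo reads (95.7%), and a second principal component of 125.24 where the other 17 libraries lay between −25.89 and 23.83. Of the list members tested, only Prl, Gh, Kiss1, and Pou1f1 changed by more than 1.5 times in fitted fold change when it was left out, and their values without it are given where they are described.

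**Figure D1:**
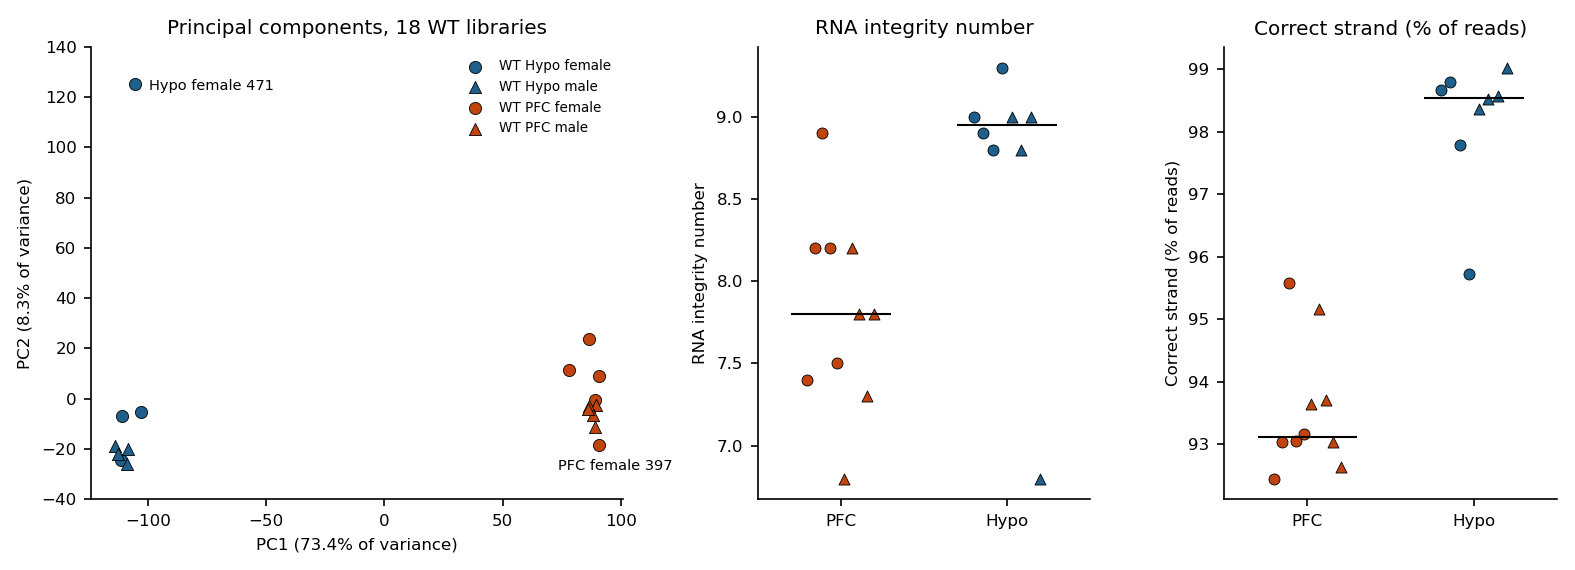
Principal components of log2 CPM in the 18 WT libraries (left; axes in units of the component, with its share of the variance), and RIN (middle) and percent of reads on the expected strand (right) per library, with the median as a black line; circles are females and triangles males. The regions separate on the first component (73.41% of the variance), Hypo female 471 lies apart on the second, and the strand shares of the regions do not overlap.

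The first question was how far the RNA of the regions differs. At an adjusted p under 0.05 (edgeR quasi-likelihood test with sex as a covariate, Benjamini-Hochberg), 14032 genes were called, 65.8% of those tested, with 6685 (31.3%) higher in the PFC and 7347 (34.4%) higher in the Hypo. These shares are the background for the counts of list members called in each direction. The lists and their members were chosen with earlier results of these data known. A count above the background is therefore a description and not a test. Against a threshold of a 2-fold change, 4232 genes passed (19.8%), 2174 of them (10.2%) with more RNA in the PFC and 2058 (9.65%) with more in the Hypo. The CPM of 6835 genes (32.0%) did not overlap between the 10 PFC and the 8 Hypo libraries. Fold changes are given as log2 of PFC over Hypo, so that positive values are higher in the PFC, and their median over all tested genes was −0.04 (quartiles −0.53 and 0.47). The first principal component of the 18 libraries held 73.41% of the variance and placed all PFC libraries between 78.18 and 90.89 and all Hypo libraries between −113.83 and −102.83. The strand share, which follows the region, moved these counts: with it as a further covariate, an alternative chosen after seeing the data, 7644 genes were called and 2449 passed the 2-fold threshold. The strand share does not overlap between the regions, so that fit separates it poorly from the region. A call lost there need not come with a smaller estimate.

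Transcription factors of cortical projection neurons were higher in the PFC. Of 23 tested, 20 were called higher in the PFC and 1 in the Hypo, 18 of them by more than 2-fold, and the median log2 fold change was 2.51. Tbr1 (chromosome 2, 61802930 to 61814114, GRCm38), a T-box factor of deep-layer neurons, had 143 CPM in the lowest, 169 in the median, and 225 in the highest PFC library, against 0.446, 0.796, and 4.77 CPM in the Hypo (log2 fold change 6.76, SE 0.42; edgeR, adjusted p = 1.04e-11). Neurod6, a bHLH factor of cortical excitatory neurons, had 91.2, 147, and 186 CPM against 0.217, 1.48, and 2.23 CPM (log2 fold change 6.68, SE 0.301; edgeR, adjusted p = 5.42e-14), and its relative Neurod2 had 53.6, 63.5, and 95.5 CPM against 0.191, 0.66, and 1.27 CPM (6.60). For these 3 genes every PFC library lay far above every Hypo library, and the highest Hypo values of Tbr1 were in females 398 and 471 (4.77 and 3.57 CPM).

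The homeobox gene Emx1, which patterns the dorsal forebrain, had a log2 fold change of 6.63. Mef2c, an activity-regulated factor, reached 889 to 1310 CPM in the PFC and 23.2 to 50.7 CPM in the Hypo (4.80), and Zbtb18, a repressor needed for cortical neuron maturation, 477 to 588 against 29.1 to 47.5 CPM (3.67). Among the factors that mark layers, Fezf2, which directs neurons toward the brainstem and spinal cord, had a log2 fold change of 3.76, Bcl11b 2.22, Etv1 2.17, and Cux2, of the upper layers, 2.08. Cux1 (0.02) and Tle4 (−0.32; −0.39 and called without female 471) were not called, and the nuclear receptor Nr4a2 was the member called higher in the Hypo (−0.64; edgeR, adjusted p = 0.0261), a call lost with RIN as a covariate (adjusted p = 0.126) and in the fit of the 4 mice with both regions (adjusted p = 0.452), as well as without PFC female 259 (adjusted p = 0.054), PFC female 262 (adjusted p = 0.0544), or Hypo female 410 (adjusted p = 0.061).

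A further list, of genes expressed in particular cortical layers, held members of both directions. Of 20 tested, 11 were higher in the PFC, 7 higher in the Hypo, and 2 not called (median 0.42; background shares 31.3% and 34.4%). With the strand share as a covariate 7 and 3 were called (median −0.12), while scaling by library totals alone gave 6 and 7. Lamp5, a membrane protein of upper-layer and neurogliaform cells, had 186, 254, and 366 CPM in the PFC and 5.95, 11.7, and 16.1 CPM in the Hypo (log2 fold change 4.58). Crym, a thyroid hormone binding protein of deep layers, had 32.6 to 86.5 against 2.53 to 8.70 CPM (3.71). In the other direction, Nxph4, a secreted ligand of neurexins, had 0.127, 0.453, and 0.897 CPM in the PFC and 5.82, 22.0, and 37.3 CPM in the Hypo (−5.51), without overlap, and Scnn1a, a sodium channel subunit used as a marker of layer IV, had 0.269 to 2.75 against 3.14 to 4.07 CPM (−2.09).

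The glutamate transporters of synaptic vesicles changed places between the regions. Slc17a7 (chromosome 7, 45163949 to 45176142, plus strand) had 1470 CPM in the lowest, 1680 in the median, and 1890 in the highest PFC library and 0.411, 1.03, and 8.44 CPM in the Hypo. Its log2 difference, 9.81 (SE 0.522; edgeR, adjusted p = 8.27e-13), was the largest in favour of the PFC among the genes at 10 CPM or more, and the groups were far apart. The highest Hypo value was that of male 245, and without that library the log2 fold change was 10.40. Slc17a6 (chromosome 7, 51622006 to 51671119, plus strand) ran the other way, with 6.0, 9.94, and 12.9 CPM in the PFC and 282, 378, and 425 CPM in the Hypo (log2 fold change −5.22, SE 0.154; edgeR, adjusted p = 6.37e-17). Per kb of exon, Slc17a7 stood at a mean of 308 CPM in the PFC and Slc17a6 at 67.2 CPM in the Hypo. The third transporter of the family, Slc17a8, was at 2.57 to 4.46 CPM in the PFC and 2.21 to 4.09 CPM in the Hypo and was not called (0.15).

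Of the 12 genes tested for the making and packing of fast transmitters, 1 (Slc17a7) was higher in the PFC and 7 in the Hypo, and the median was −0.76. Gad1, which makes GABA, was at 352 to 450 CPM in the PFC and 332 to 416 CPM in the Hypo, and the ranges overlapped (log2 fold change 0.04; edgeR, adjusted p = 0.546). Gad2, the form of the enzyme found at terminals, was higher in the Hypo (217 to 255 against 322 to 598 CPM; −1.0), as was Slc32a1, the vesicular transporter of GABA and glycine (−0.71). Glra1, a glycine receptor subunit, had 0.183, 0.297, and 0.538 CPM in the PFC and 4.19, 24.3, and 27.8 CPM in the Hypo (−6.11), and its lowest Hypo value was in female 471. The acetylcholine genes Slc18a3 (−2.49) and Chat (−1.62) were higher in the Hypo at levels up to 1.47 and 3.06 CPM.

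Genes of the excitatory postsynapse followed the cortex. Of 19 tested, 17 were higher in the PFC and 1 in the Hypo, 14 by more than 2-fold, with a median log2 fold change of 2.10. Camk2a, the calcium-dependent kinase of the postsynaptic density, had 3570, 4860, and 5900 CPM in the PFC and 269, 457, and 574 CPM in the Hypo (3.36). Ddn (dendrin), a protein of dendrites, had 935 to 1550 against 24.6 to 58.9 CPM (5.17), and Nrgn (neurogranin), which binds calmodulin, 652 to 1110 against 28.6 to 131 CPM (4.03), with all PFC libraries above all Hypo libraries in each case. Among receptor subunits, Grin2a (3.21), Gria3 (2.11), Grin2b (1.97), and Gria2 (0.89) were higher in the PFC. Gria1 was the member called higher in the Hypo (337 to 497 against 346 to 632 CPM; −0.31; edgeR, adjusted p = 0.0078), with overlapping ranges. That call was lost with RIN as a covariate (edgeR, adjusted p = 0.0761), and the direction turned with the strand share as a covariate (0.13).

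Immediate early genes, which neurons transcribe within minutes of firing, were also higher in the PFC, 12 of 14 tested and 0 in the Hypo, with a median of 1.87. Egr3 (chromosome 14, 70077203 to 70082614) had 140, 203, and 346 CPM in the PFC and 2.30, 4.10, and 6.40 CPM in the Hypo (log2 fold change 5.84, SE 0.254; edgeR, adjusted p = 3.17e-14). Arc, whose product acts at synapses, had 60.2, 206, and 568 CPM against 7.93, 9.66, and 15 CPM (4.34), and no PFC library fell into the Hypo range of either gene. Fos, the gene most used to mark active neurons, did not follow them: it had 8.76, 19.1, and 56.9 CPM in the PFC and 6.27, 20.2, and 43.9 CPM in the Hypo, with a log2 fold change of 0.05 (edgeR, adjusted p = 0.913). Btg2 was likewise not called (0.13). With the strand share as a covariate 3 of the 14 were called, all higher in the PFC, and the median was 0.91. The part of RNA quality and of the differing dissections in this list was not tested further.

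**Figure D2:**
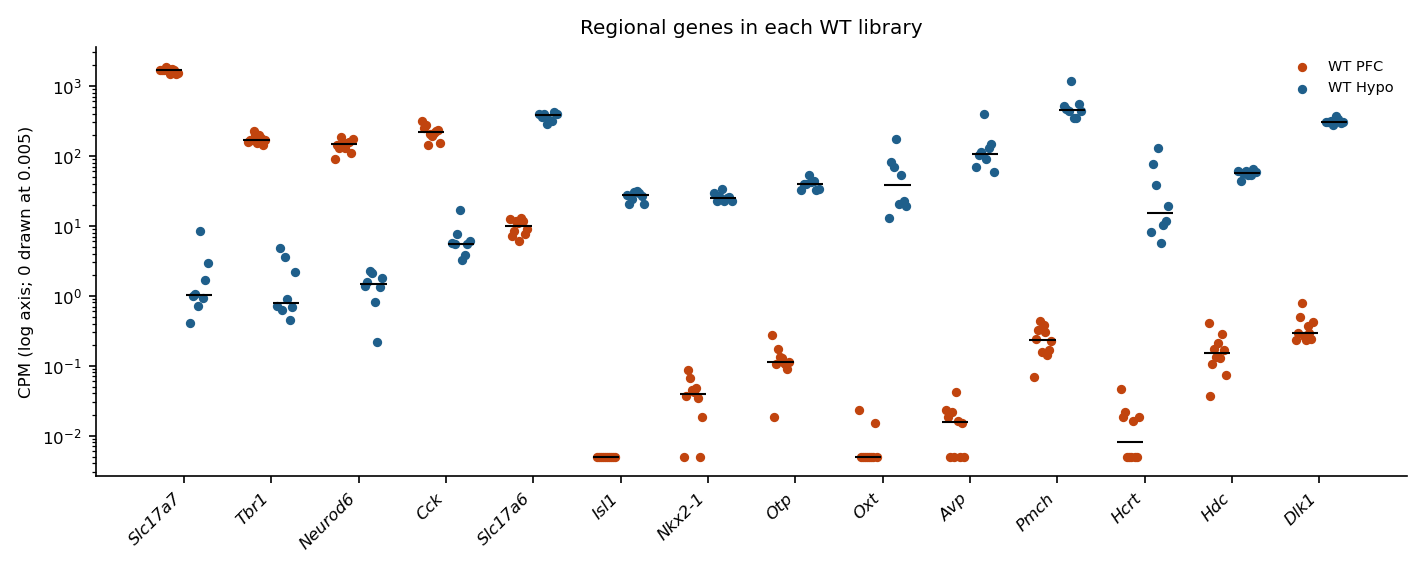
CPM of 14 regional genes in each WT library on a log axis (PFC in orange, 10 points; Hypo in blue, 8 points; black lines are medians, and 0 CPM is drawn at 0.005). For every gene shown the points of the regions do not overlap, from Slc17a7 at 1470 to 1890 CPM in the PFC to Pmch at 346 to 1170 CPM in the Hypo.

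Genes of cortical interneurons were split. Of 20 tested, 12 were higher in the PFC, 5 in the Hypo, and 3 not called (median 0.85). Cck, the peptide of basket cells that is also made by projection neurons, had 141, 218, and 310 CPM in the PFC and 3.20, 5.56, and 17.0 CPM in the Hypo (log2 fold change 5.09). Cort, a relative of somatostatin, had 1.29 to 2.57 against 0 to 0.0637 CPM (5.84). Lhx6, the homeobox gene of the medial ganglionic lineage, had a log2 fold change of 2.39, and Pvalb, the calcium buffer of fast-spiking cells, 2.32. Sst was not called (0.16), with 76.8 to 136 CPM in the PFC and 45.4 to 207 CPM in the Hypo, but was called higher in the PFC without female 471 (0.40; edgeR, adjusted p = 0.0409). The members higher in the Hypo were Calb2 (−4.38), Sncg (−4.36), Nos1 (−1.72), Prox1 (−1.61), and Calb1 (−0.67). Calb2, the calcium buffer calretinin, had 6.79, 9.03, and 16.4 CPM in the PFC and 158, 183, and 348 CPM in the Hypo, without overlap.

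Transcription factors of hypothalamic development and identity gave the largest median difference of the 29 lists with tested members, except with the strand share as a covariate, where their median was −9.33 and that of the pituitary genes −9.76. Of 27 tested, 25 were higher in the Hypo and 2 in the PFC, 24 of the 25 by more than 2-fold, the CPM of all 27 did not overlap between the regions, and the median log2 fold change was −9.15, also with the 5 genes that had no read in any PFC library set at their bound. Isl1, Foxb1, Nkx2-4, and Sox14 were among these. Isl1 (chromosome 13, 116298281 to 116309689), a LIM homeobox gene of arcuate neurons, had 20.3, 27.4, and 30.9 CPM in the Hypo and 0 counts in the 10 PFC libraries, which is at least 4510-fold higher in the Hypo when the PFC is set at 3 counts over the group (edgeR, adjusted p = 3.81e-13). Foxb1, of the mammillary bodies, was at least 3140-fold higher by the same bound. These bounds cover counting error only.

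Other members were detected in the PFC by a few reads. The eye and forebrain factor Six3 was 8710-fold higher in the Hypo (95% counting interval 2410 to 72000), Bsx, of feeding neurons in the arcuate nucleus, 6460-fold (1160 to 255000), and Six6 3900-fold (1080 to 32200). Nkx2-1, a homeobox gene of hypothalamic development, had 0 to 0.0856 CPM in the PFC and 22.3, 25.1, and 33.8 CPM in the Hypo (log2 fold change −9.38), Otp, which neurosecretory neurons require, 0.0185 to 0.275 against 32.4 to 53.3 CPM (−8.31), and Sim1, of the paraventricular nucleus, 0 to 0.0738 against 12.1 to 31.9 CPM (−9.92). Nr5a1, also called SF-1 and a marker of the ventromedial nucleus, had 0 to 0.106 against 10.3 to 29.6 CPM (−8.75). Pou3f2 (0.84) and Arnt2 (1.30), which neurosecretory neurons need but which many neurons use, were the members higher in the PFC. For Arnt2 the PFC held 699 to 866 and the Hypo 167 to 339 CPM, and the call of Pou3f2 was lost with the strand share as a covariate (0.75; adjusted p = 0.0513).

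Levels of these factors also varied among the 8 Hypo libraries, and the following was noticed after the values were seen. The pair of males below was picked on these same values, so its shares are a description and not a test. Males 245 and 251 held the lowest pair of values for 5 of the 27 factors (18.5%, among them Foxb1, Lhx1, Lhx5, and Sim2) and the highest pair for 5 others (Fezf1, Nr5a1, Six6, Sox14, and Tbx3; 18.5%). Among the 2058 genes more than 2-fold higher in the Hypo, they held the lowest pair for 124 (6.03%) and the highest pair for 218 (10.6%), and among all 21334 tested genes for 838 (3.93%) and 830 (3.89%). Foxb1 was at 3.30 and 5.33 CPM in these males and at 18.5 to 28.5 CPM in the other 6 libraries. Conversely, Fezf1, of the ventromedial nucleus, was at 29.7 and 28.5 CPM in these males and at 15.4 to 19.8 CPM in the others, and Nr5a1 at 29.6 and 23.9 against 10.3 to 16 CPM. Foxb1 and Lhx1 are known from the mammillary region, and Nr5a1 and Fezf1 from the ventromedial nucleus. Whether the extent of the dissection differed between these animals was not tested.

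**Figure D3:**
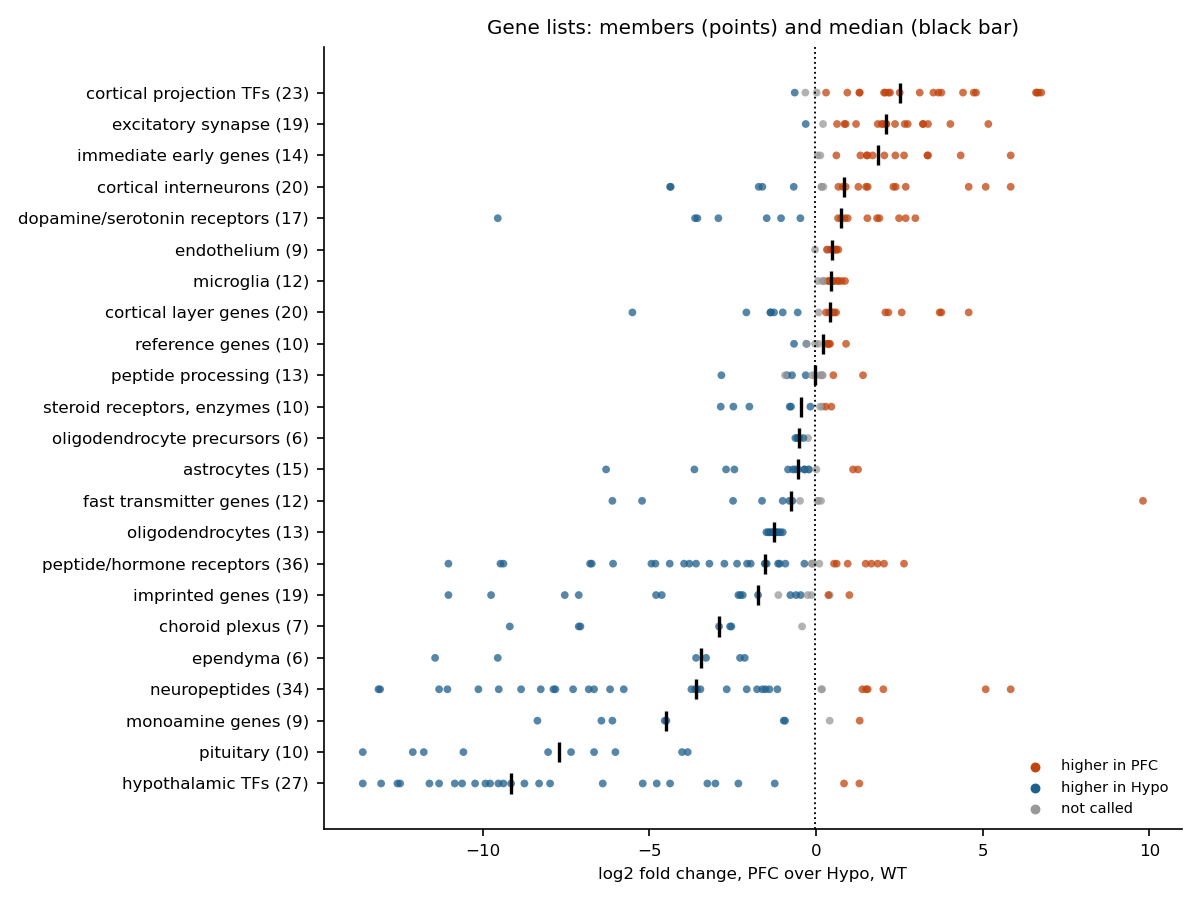
Log2 fold change (PFC over Hypo, x axis) of each member of 23 gene lists (one line per list, number of tested genes in parentheses); orange points were called higher in the PFC, blue points higher in the Hypo, grey points were not called, black bars are medians, and the dotted line is the median of all 21334 tested genes (−0.04). Fitted values of genes with no PFC read depend on a prior count. Medians run from 2.51 for cortical projection neuron factors to −9.15 for hypothalamic factors.

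Neuropeptide precursors differed strongly as well. Of 34 tested, 26 were higher in the Hypo and 6 in the PFC, 25 and 5 of them by more than 2-fold, with a median of −3.60. With the strand share as a covariate 26 and 3 were called (median −4.65). Oxt and Avp, the precursors of oxytocin and vasopressin, lie beside each other on chromosome 2 and are transcribed toward each other. Hcrt makes the orexins, which keep animals awake, and Pmch makes melanin-concentrating hormone, and both belong to neurons of the lateral Hypo. The 250 bases before the RefSeq start of these 4 genes, and of Slc17a7 for the PFC, are printed here as examples, because the neurons that express them are well known and their RNA differed widely between the regions. Sequences are from RefSeq (GRCm38.p6), read on the strand of the gene from 5′ to 3′. Capitals mark TATAAA (the TATA box), TGACCT (the core of nuclear receptor elements), or CAGATG (an E-box), searched on both strands. No capitals overlap.
Oxt, chr2:130575919-130576168, plus strand: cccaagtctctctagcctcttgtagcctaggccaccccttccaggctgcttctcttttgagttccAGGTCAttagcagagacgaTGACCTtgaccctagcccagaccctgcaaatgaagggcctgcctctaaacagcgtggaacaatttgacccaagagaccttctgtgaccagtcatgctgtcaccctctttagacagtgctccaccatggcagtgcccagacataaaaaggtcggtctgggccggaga
Avp, chr2:130582589-130582838, minus strand: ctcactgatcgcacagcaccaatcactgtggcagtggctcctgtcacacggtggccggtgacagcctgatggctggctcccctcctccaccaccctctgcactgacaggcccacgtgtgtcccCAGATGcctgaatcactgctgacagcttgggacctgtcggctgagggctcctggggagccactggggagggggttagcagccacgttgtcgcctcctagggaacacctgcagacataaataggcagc
Hcrt, chr11:100762932-100763181, minus strand: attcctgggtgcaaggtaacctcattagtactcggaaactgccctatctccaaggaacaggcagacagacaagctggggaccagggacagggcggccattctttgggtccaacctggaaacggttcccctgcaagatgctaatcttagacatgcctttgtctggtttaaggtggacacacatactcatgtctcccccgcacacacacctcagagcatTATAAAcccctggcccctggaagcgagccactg
Pmch, chr10:88090822-88091071, plus strand: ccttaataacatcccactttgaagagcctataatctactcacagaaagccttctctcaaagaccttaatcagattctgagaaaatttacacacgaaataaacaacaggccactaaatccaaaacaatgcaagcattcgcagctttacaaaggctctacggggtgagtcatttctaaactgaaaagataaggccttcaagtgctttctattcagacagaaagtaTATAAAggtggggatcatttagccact
Slc17a7, chr7:45163671-45163920, plus strand: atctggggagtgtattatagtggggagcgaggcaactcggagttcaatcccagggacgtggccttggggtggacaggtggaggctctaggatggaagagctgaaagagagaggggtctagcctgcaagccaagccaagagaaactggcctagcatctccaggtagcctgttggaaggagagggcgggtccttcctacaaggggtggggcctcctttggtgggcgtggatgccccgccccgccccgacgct

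TGACCT stood at 2 places in the Oxt promoter, on the minus strand at 185 to 180 and on the plus strand at 166 to 161 bases before the start, where the composite hormone response element of this gene is known to lie. CAGATG stood in the Avp promoter at 127 to 122 bases before the start. TATAAA stood in Hcrt at 33 to 28 and in Pmch at 27 to 22 bases before the start, and no capitals fell in the window of Slc17a7. Of all 32851 promoter windows of 27025 genes, 12.4% held TATAAA, 14% TGACCT, and 14.4% CAGATG. Among windows of genes more than 2-fold higher in the Hypo, the shares were 11.3, 13.6, and 14.1%, among those more than 2-fold higher in the PFC 9.99, 11.6, and 13.5%, and among those of all tested genes 7.55, 11.2, and 11.2%. A match describes letters and not a site in use.

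Pmch had 0.0688, 0.231, and 0.439 CPM in the PFC and 346, 455, and 1170 CPM in the Hypo (log2 fold change −11.06, SE 0.293; edgeR, adjusted p = 1.2e-17). Avp had 7 counts in all PFC libraries together and 58.6, 107, and 392 CPM in the Hypo (−13.08, SE 0.496; edgeR, adjusted p = 3.4e-15). Oxt had 2 counts in the PFC and 12.8, 38.2, and 171 CPM in the Hypo, a 13300-fold difference (95% counting interval 3670 to 110000). Hcrt had 6 counts in the PFC and 5.75, 15.4, and 131 CPM in the Hypo (−11.31). The regions did not overlap for any of the 4. Without female 471, which held the highest value of each, the log2 fold change was −10.84 for Pmch, −12.68 for Avp, and −10.84 for Hcrt, and Oxt was 10700-fold higher (95% counting interval 2950 to 88000). Per kb of exon, Pmch was the highest peptide precursor in the Hypo (mean 715 CPM per kb), ahead of Avp (239), Sst (124), Oxt (105), Trh (80.4), Gal (65.9), and Penk (54.0). Without female 471 these means were 594 for Pmch, 176 for Avp, 100 for Sst, 74.0 for Oxt, 76.8 for Trh, 54.6 for Gal, and 47.8 CPM per kb for Penk, so that Trh then stood above Oxt.

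Trh, the precursor of thyrotropin-releasing hormone, had 0.505 to 1.95 CPM in the PFC and 88.9 to 146 CPM in the Hypo (log2 fold change −6.82), Ghrh, of growth hormone release, a fold change of −7.82, and Gnrh1, of gonadotropin release, −3.47 at 1.08 to 2.33 CPM in the Hypo. Of the arcuate feeding peptides, Pomc had 0.382 to 0.749 against 30.7 to 139 CPM (−6.66), Cartpt 0.361 to 3.26 against 47.7 to 138 CPM (−6.18), and Agrp 0.204 to 0.665 against 2.74 to 8.62 CPM (−3.63). Npy, their partner in hunger signalling, was instead higher in the PFC (36.0, 50.2, and 72.1 against 10.7, 15, and 26.7 CPM; 1.55), where interneurons make it. The other precursors higher in the PFC were Cort (5.84), Cck (5.09), Npw (2.02, at up to 0.482 CPM and −0.13 with the strand share as a covariate), Vip (1.5), and Crh (1.39). Crh, the stress peptide of the paraventricular nucleus and of cortical interneurons, had 3.62 to 5.41 CPM in the PFC and 0.807 to 5.50 CPM in the Hypo, and only female 471 among the Hypo libraries, at 5.50 CPM, lay above 2.33 CPM. With the strand share as a covariate, Crh (0.12) and Vip (0.65) were no longer called.

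Peptide levels also varied among the 8 Hypo libraries, and female 471 held the highest value for 28 of the 34 precursors (82.4%) and the lowest for 0. As the library that stood apart, it was also the highest for 36.7% and the lowest for 37.5% of all 21334 tested genes. Among the receptors for peptides and hormones it was the highest for 8 and the lowest for 19 of 36, among the hypothalamic factors for 8 and 5 of 27, and among the imprinted genes for 7 and 8 of 19. In that library Oxt was at 171 CPM where the other 7 lay at 12.8 to 80.2, Avp at 392 against at most 148, Hcrt at 131 against at most 76.6, Pmch at 1170 against at most 552, and Kiss1, which drives the reproductive axis, at 10.3 against at most 2.85 CPM (log2 fold change −3.57, or −2.95 without it). The summed level of the list was 1320 to 1570 CPM in the other 7 libraries and 3440 CPM in this one, against 452 to 764 CPM in the PFC. Without it, 26 precursors were called higher in the Hypo and 8 in the PFC. Among the other Hypo females Oxt was at 80.2 CPM in 398, 69.6 CPM in 410, and 12.8 CPM in 262, and the 4 males lay between, at 19 to 53.6 CPM.

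**Figure D4:**
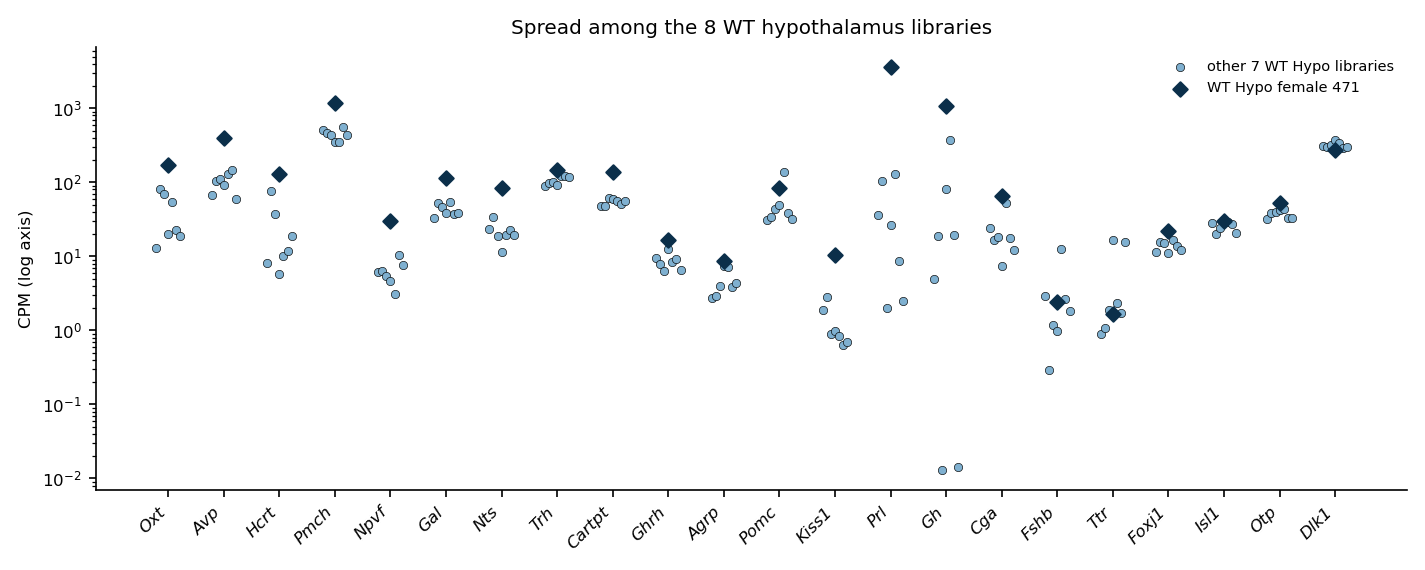
CPM on a log axis of peptide, pituitary, choroid plexus, ependymal, and identity genes in the 8 WT Hypo libraries (diamond, female 471; circles, the other 7). Female 471 is the highest library for Oxt (171 CPM), Avp (392 CPM), Kiss1 (10.3 CPM), Prl (3600 CPM), and Gh (1070 CPM), while it lies among the other libraries for Isl1 (29.9 CPM) and is the lowest for Dlk1 (277 CPM).

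The machinery that cuts and packs peptides did not divide in the same way. Of 13 genes, 2 were higher in the PFC, 4 in the Hypo, and 7 not called, with a median of −0.03. Scg2, a granin of dense-core vesicles, was the member with a difference over 2-fold in favour of the Hypo (140 to 245 against 1120 to 1410 CPM; −2.84), and Pcsk2, a prohormone convertase, that in favour of the PFC (665 to 825 against 199 to 311 CPM; 1.41). Pcsk1, the other convertase, was slightly higher in the Hypo (−0.31). Cpe, the carboxypeptidase that trims peptide ends, was not called (0.17), at 1670 to 2130 CPM in the PFC and 1450 to 2240 CPM in the Hypo. Without female 471 it was called higher in the PFC (0.23; edgeR, adjusted p = 0.00109), and 4 members were called in each direction.

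Receptors for peptides and hormones were on balance higher in the Hypo, 24 of 36 tested against 8 in the PFC, 20 and 5 by more than 2-fold, with a median of −1.53. Adding the strand share as a covariate left 18 and 6 called (median −1.20). Calcr, the calcitonin and amylin receptor, had at most 0.0877 CPM in the PFC and 33.2, 41.4, and 45.5 CPM in the Hypo (log2 fold change −11.03). Brs3, an orphan receptor for energy balance (−9.47), Ghsr, the ghrelin receptor (−9.38), and Galr1, a galanin receptor (−6.73), were near 0 in the PFC. Prlr, through which prolactin feeds back, had 0.385 to 0.875 against 25.5 to 90.0 CPM (−6.78), and Glp1r, the target of incretin drugs, 0.276 to 0.557 against 16.3 to 41.8 CPM (−6.09). The melanocortin receptors Mc3r and Mc4r differed by −4.82 and −1.09, and the leptin receptor Lepr by −1.14. Oxtr, the oxytocin receptor, differed by little (6.22 to 11.0 against 8.89 to 12.4 CPM; −0.35; edgeR, adjusted p = 0.00773), with overlapping ranges, in contrast to its ligand.

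Receptors higher in the PFC were Cckbr (55.5 to 70.7 against 9.31 to 12.3 CPM; 2.64), the receptor for brain cholecystokinin, the delta opioid receptor Oprd1 (2.04), Crhr1 (1.85), the somatostatin receptors Sstr4 (1.66), Sstr3 (1.49), and Sstr2 (0.95), Npy1r (0.62), and Mchr1 (0.54). The calls of Npy1r (then 0.56) and Mchr1 (then 0.1) were lost with the strand share as a covariate. Cck and Cckbr were thus both higher in the PFC, whereas Pmch and its receptor Mchr1 lay on opposite sides. Insr, Kiss1r, Npy5r, and Sstr1 were not called (−0.13 to 0.10), though Insr was called higher in the Hypo without female 471 (−0.22; edgeR, adjusted p = 0.00105).

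Of 10 steroid receptors and enzymes, 6 were higher in the Hypo and 2 in the PFC (median −0.46; background shares 34.4% and 31.3%). Esr1, the main estrogen receptor of the Hypo, had 2.16, 5.09, and 6.62 CPM in the PFC and 18.8, 26.0, and 38.2 CPM in the Hypo (log2 fold change −2.48), without overlap. Esr2 (−2.0) and the aromatase gene Cyp19a1 (−2.86) were higher in the Hypo at levels up to 1.03 and 1.24 CPM. Pgr, the progesterone receptor, was not called (0.12), and the corticosteroid receptors Nr3c2 (0.46) and Nr3c1 (0.29) were higher in the PFC by small amounts, the latter lost in the fit of the 4 mice with both regions (0.09; edgeR, adjusted p = 0.321) and without Hypo male 423 (0.26; adjusted p = 0.0532).

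Enzymes and transporters of monoamines were mostly higher in the Hypo, 7 of 9 tested against 1 in the PFC (median −4.49). The 7 include Maoa (−0.93) and Maob (−0.97), which break monoamines down, and the noradrenaline and serotonin transporters Slc6a2 and Slc6a4 did not pass the filter (at most 0.132 and 0.334 CPM). Hdc, which makes histamine in the tuberomammillary nucleus, had 0.0369 to 0.413 CPM in the PFC and 43.2, 57.6, and 64.2 CPM in the Hypo (log2 fold change −8.36). Th, which makes the dopamine precursor, had 0.446 to 2.27 against 21.0 to 38.7 CPM (−4.54), and the vesicular transporter Slc18a2 0.428 to 1.12 against 56.8 to 78.6 CPM (−6.44). Ddc, the decarboxylase, had 2.80 to 3.49 against 59.2 to 85.2 CPM (−4.49, SE 0.0833; edgeR, adjusted p = 1.26e-19), one of the 5 smallest p-values on the Hypo side. Dbh, for noradrenaline, was the member higher in the PFC (1.31), at no more than 0.855 CPM in any library. It was not called with the strand share as a covariate, though its estimate was larger there (1.68; edgeR, adjusted p = 0.0758).

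The receptors of dopamine and serotonin were divided, with 10 of 17 tested higher in the PFC and 7 in the Hypo (median 0.75), and Htr2b did not pass the filter. With the strand share as a covariate 9 and 5 were called (median 1.37). Htr2a, the receptor on which psychedelics act, had 72.0, 93.0, and 121 CPM in the PFC and 15.6, 26.8, and 33.6 CPM in the Hypo (log2 fold change 1.83). Htr1f (2.49), Drd4 (2.98, at up to 0.385 CPM), and the interneuron receptor Htr3a (2.69) lay on the same side. On the other side, Drd2 had 0.743 to 1.95 against 10.2 to 19.9 CPM (−3.63), Htr4 −2.93, Htr2c, a target of appetite suppressants, −1.05 (−0.51 and not called with the strand share as a covariate), and Drd3, with 0 counts in the PFC, was at least 288-fold higher in the Hypo.

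Imprinted genes, which are expressed from the copy of a single parent, were mostly higher in the Hypo. Of 19 tested, 13 were higher in the Hypo and 2 in the PFC, 10 by more than 2-fold, with a median of −1.74. Dlk1 (chromosome 12, 109452823 to 109463336), a Notch-like ligand, had 0.229, 0.296, and 0.789 CPM in the PFC and 277, 305, and 373 CPM in the Hypo (log2 fold change −9.75, SE 0.183; edgeR, adjusted p = 1.26e-19). Asb4 (−7.54), Magel2 (−7.12), a gene of the Prader-Willi region, and Calcr, described above, followed, and each kept the regions apart. Peg10, derived from a retrotransposon, had 22.1 to 28.7 against 394 to 923 CPM (−4.80), Nnat (neuronatin) 19.3 to 44.7 against 549 to 1200 CPM (−4.63), and Ndn (necdin) 104 to 180 against 509 to 1090 CPM (−2.27). Cdkn1c (1.0) and Snrpn (0.37) were higher in the PFC, but with the strand share as a covariate neither was called (Cdkn1c −0.40, adjusted p = 0.462; Snrpn 0.15, adjusted p = 0.644), and Snrpn was not called with scaling by library totals alone either (0.15; adjusted p = 0.181).

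Ube3a, the ubiquitin ligase that the transgene of the Ube3a2X mice adds, is silenced on the paternal copy in neurons. It had 189, 229, and 271 CPM in the PFC and 107, 291, and 354 CPM in the Hypo of WT mice, and the difference was not called (log2 fold change −0.25, SE 0.147; edgeR, adjusted p = 0.149). The lowest Hypo value was that of female 471. Without that library Ube3a was called higher in the Hypo (−0.38; adjusted p = 5.76e-05), as it was in the fit of the 4 mice with both regions (−0.46; adjusted p = 0.000207).

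Glia differed by class. All 13 oligodendrocyte genes were higher in the Hypo (median log2 fold change −1.26, from Mog at −1.49 to Ermn at −1.0), with a summed level of 1120 to 2860 CPM in the PFC and 3460 to 5760 CPM in the Hypo. Of 6 genes of oligodendrocyte precursors, 5 were higher in the Hypo by smaller amounts (median −0.52). With the strand share as a covariate, 10 of the 13 and 2 of the 6 were called, all higher in the Hypo, and among the precursor genes Sox10 was no longer called (−0.51; adjusted p = 0.262) and Pdgfra stood at 0.01 (adjusted p = 0.982). Of 15 astrocyte genes, 11 were higher in the Hypo and 2 in the PFC (median −0.54), while the general marker Aldh1l1 was not called (0.01). Agt, the angiotensin precursor, had 2.13 to 4.47 CPM in the PFC and 166 to 299 CPM in the Hypo (−6.30), Itih3 33.3 to 47.9 against 459 to 545 CPM (−3.65), and Gfap, the intermediate filament, 23.2 to 103 against 278 to 499 CPM (−2.70). Slc1a2, the glutamate transporter GLT-1, was higher in the PFC (3680 to 5200 against 945 to 2160 CPM; 1.26), as was Mfge8 (1.11), whose call was lost with the strand share as a covariate (0.55; adjusted p = 0.0935).

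Markers of microglia and vessels were slightly higher in the PFC. For microglia these were 8 of 12 (median 0.45), led by the purine receptor P2ry12 (38.7 to 61.4 against 21.5 to 30.7 CPM; log2 fold change 0.87), for endothelium 7 of 9 (median 0.49), and for mural cells 4 of 7 (median 0.33), with 0 called in the Hypo in all 3 lists. Their sums overlapped between the regions for microglia (369 to 539 against 306 to 381 CPM), endothelium (292 to 474 against 267 to 323 CPM), and mural cells (163 to 270 against 146 to 173 CPM). Without female 471 the microglial sum of the Hypo reached 364 CPM and no longer overlapped that of the PFC, while the other two still did, and 11, 7, and 5 members were called higher in the PFC. Scaling by library totals alone, chosen after seeing the data, moved the median of all genes from −0.04 to −0.27 and left 5, 4, and 2 calls in these lists, with 1 endothelial gene (Slc2a1) then called in the Hypo, and 3, 1, and 1 members were called with the strand share as a covariate. With RIN as a covariate 7, 6, and 2 were called, all higher in the PFC. Reference genes give the scale of such differences: of 10, 5 were higher in the PFC and 2 in the Hypo (median 0.20), or 1 and 4 with scaling by library totals alone (median −0.03), with Ywhaz at 0.90.

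Genes of tissues at the border of the Hypo were detected in its libraries. All 6 ependymal genes were higher in the Hypo (median −3.45; sums 6.10 to 10.9 against 52.6 to 127 CPM, at most 67.1 CPM without female 471), among them Tmem212, with 0 counts in the PFC and at least 989-fold higher in the Hypo, and Foxj1, the master gene of motile cilia (−3.60). Of 8 tanycyte genes, 4 were higher in the Hypo, led by Gpr50 (−7.33) and Rax (−5.20), and 3 in the PFC, among them Crym and Dio2. Dio2, a deiodinase that cortical astrocytes also make, had 63.3 to 168 against 11.4 to 17.1 CPM (3.09). Of 7 choroid plexus genes tested, 6 were higher in the Hypo (median −2.91). With the strand share as a covariate the median was −3.94 for choroid plexus and −4.31 for ependyma, with 6 genes of each list called higher in the Hypo. Clic6, a chloride channel protein, had 0.161 to 0.321 against 29.8 to 43.1 CPM, and Ttr, by far the most abundant RNA of choroid plexus, had 0 to 0.105 CPM in the PFC and 0.901 to 16.7 CPM in the Hypo, with a median of 1.79.

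All 10 pituitary genes were higher in the Hypo (median −7.70; sums 0.488 to 1.40 against 52.2 to 4840 CPM, at most 717 CPM without female 471). With RIN as a covariate 8 of the 10 were called, by limma-voom 8, or 9 with the mouse as block, and by DESeq2 9, which gave no adjusted p for Prl. Cga, the subunit shared by the glycoprotein hormones, had 0 counts in the PFC and 7.50, 18, and 65.7 CPM in the Hypo, at least 4400-fold higher, or at least 3810-fold without female 471. Prl (prolactin) had 0 to 0.574 CPM in the PFC and 1.98, 31.5, and 3600 CPM in the Hypo (log2 fold change −11.77, or −8.50 without female 471), and Gh (growth hormone) had 0 to 0.138 against 0.0131 to 1070 CPM with overlapping ranges. The log2 fold change of Gh was −12.10 (edgeR, adjusted p = 4.41e-05), or −10.59 without female 471 (adjusted p = 5.29e-05). Its call was lost with RIN as a covariate (−5.59; adjusted p = 0.198), with RIN and 2 surrogate variables (−6.99; adjusted p = 0.0573), and by limma-voom without and with the mouse as block (−7.63 and −8.30; adjusted p = 0.224 and 0.187). Pou1f1, a transcription factor of pituitary hormone cells, had a log2 fold change of −3.85, or −2.89 without female 471, and was the other member not called with RIN as a covariate or by limma-voom without the block. Gh was highest in female 471 (1070 CPM) and male 251 (371 CPM) and was near 0 in female 410 and male 423. Pomc, which belongs to both the pituitary and the neuropeptide list, was highest in the same libraries (139 CPM in male 251 and 84.1 CPM in female 471). Isl1 is known from the pituitary too, and it was at 29.3 CPM in male 251 and 29.9 CPM in female 471. The pituitary share of the Hypo values was not tested.

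Markers of other neighbouring regions were closer to balance. Of 8 thalamic genes, 5 were higher in the Hypo and 1 in the PFC (median −0.91; sums 145 to 182 against 137 to 223 CPM, or 195 to 223 CPM without female 471), and of 8 striatal genes 4 were higher in the PFC and 2 in the Hypo (sums 134 to 180 against 125 to 160 CPM), or 1 and 2 with scaling by library totals alone, 1 and 3 with the strand share as a covariate, and 2 and 2 with RIN as a covariate or in the fit of the 4 mice with both regions. The thalamic gene called higher in the PFC was Rora (0.31). Its call was lost with RIN as a covariate (0.27; edgeR, adjusted p = 0.123), library totals alone (0.08; adjusted p = 0.512), and the strand share as a covariate (0.67; adjusted p = 0.117). In these settings 5, 6, and 4 thalamic genes were called higher in the Hypo. The largest of the striatal changes were those of Ppp1r1b (DARPP-32; 1.94), Drd2 (−3.63), and Rgs9 (−3.11), and the largest of the thalamic ones those of Gbx2 (−2.61) and Tcf7l2 (−1.91). Of 9 meningeal genes, Dcn (−1.95), Lum (−1.08), and Col3a1 (−0.70) were called higher in the Hypo and Islr (0.43) in the PFC. With the strand share as a covariate Dcn alone was called, and Lum (−0.46; adjusted p = 0.597), Col3a1 (−0.77; adjusted p = 0.452), and Islr (0.52; adjusted p = 0.133) were not. The call of Islr was also lost with library totals alone (adjusted p = 0.103) and in the fit of the 4 mice with both regions (0.23; adjusted p = 0.122). That of Col3a1 (adjusted p = 0.0418) was lost with RIN as a covariate (adjusted p = 0.137), with no filter (adjusted p = 0.0684), and without any 1 of PFC 93, 245, 256, 262, 397, or 403 or Hypo 251, 403, 410, or 423 (adjusted p = 0.0529 to 0.0936). All 5 blood genes were higher in the Hypo (median −1.24; sums 37.5 to 110 against 84.4 to 312 CPM, at most 241 CPM without female 471), but 3 of the 5 were called in the fit of the 4 mice with both regions, where Hbb-bs (−1.35; adjusted p = 0.0518) and Hba-a2 (−1.19; adjusted p = 0.118) were not, 4 by limma-voom, and 3 with the strand share as a covariate (median −2.29). The 13 Hox genes, which mark hindbrain and spinal cord, did not pass the filter, and their sum reached no more than 0.0849 CPM. How far these tissues entered the dissections, and their part in the lists above, was not tested.

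Among the 24 genes with the largest changes (12 per direction, at 10 CPM or more in the higher region and without overlap), 9 belonged to none of the lists, which were chosen with earlier results known. On the PFC side these were Igfn1, an immunoglobulin and fibronectin domain gene (17.4, 30.7, and 53.7 against 0.0288, 0.0792, and 0.140 CPM; log2 fold change 8.66), the uncharacterized genes Gm11549 (8.01) and C730002L08Rik (8.01), Rtn4rl2, of the Nogo receptor family (7.42), the adrenergic receptor Adra1d (6.84), Slc30a3, which fills synaptic vesicles with zinc (6.80), the protease inhibitor Serpinb8 (6.33), and Mas1, a receptor of the angiotensin system (5.98). On the Hypo side B230323A14Rik, annotated as antisense, had 1 count in the PFC and 3.21, 13.7, and 19.1 CPM in the Hypo, a 6460-fold difference (95% counting interval 1160 to 255000). The smallest p-values on the PFC side belonged to Gm11549, Mpped1, Inka2, Camkk2, and Ankrd33b, and on the Hypo side to Arhgap36, Clic6, Igsf1, Dlk1, and Ddc. Igsf1, a membrane protein whose loss causes central hypothyroidism, had 1.23 to 2.71 CPM in the PFC and 130 to 194 CPM in the Hypo (−6.40; edgeR, adjusted p = 4.24e-20), and Arhgap36 0.233 to 0.472 against 103 to 219 CPM (−8.60; adjusted p = 2.88e-20).

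Genes annotated as antisense leaned toward the PFC. Of 1240 tested, 406 were more than 2-fold higher in the PFC and 98 in the Hypo, with a median log2 fold change of 0.70. Of 1018 lincRNAs, 225 were more than 2-fold higher in the PFC and 165 in the Hypo (median 0.10), and of 16099 protein-coding genes 1233 and 1631 (median −0.06). The strand share moved with the region: it was 93.1% in the median PFC and 98.5% in the median Hypo library. With the strand share as a covariate, 163 of the 406 and 64 of the 98 stayed called in the same direction. In Ube3a2X mice, whose PFC libraries had a median strand share of 97.8% (91.5 to 99.1%) and whose Hypo libraries had 98.3%, 138 antisense genes were more than 2-fold higher in the PFC and 107 in the Hypo of 1142 tested, with a median of 0.31, and of 1010 lincRNAs 189 and 188 (median −0.03). The part of the strand share in the antisense counts cannot be told apart from that of the region in the WT libraries, and levels of an antisense gene and of the gene opposite it are uncertain here.

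Whether the regional difference depended on sex was tested as an interaction in the 18 WT libraries. At an adjusted p under 0.05, 0 of 21334 genes (0%) were called (edgeR; smallest adjusted p = 0.4607), and 813 had an unadjusted p under 0.05. The latter share of the genes was below the 0.05 that chance alone gives. DESeq2 called 2 genes, Fkbp5, a stress-responsive chaperone partner, and Tsix, the antisense partner of Xist, and limma-voom called 0 (683 unadjusted). With 4 Hypo libraries per sex, the log2 fold change of Slc17a7 was 8.84 for males and 11.07 for females without a called interaction. The male value includes Hypo male 245, which held the highest Hypo level of this gene. Without that library the log2 fold change over both sexes was 10.4, against 9.81 with it.

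The same contrast in the 20 libraries of Ube3a2X mice, other animals of the same strain, gave nearly the same regional differences. Dissection, kit, and input follow the region there too. Mice 238, 253, 258, 267, 272, 417, 420, 462, and 468 gave both regions, and that fit had no block for the mouse. Its Hypo library of female 420 held 380.8 M counted reads. Of the 4232 genes past the 2-fold threshold in WT, 4040 were also tested there, 4038 (99.95%) had the same sign, 3859 (95.5%) were called with the same sign, and 3369 passed the 2-fold threshold, 83.4% of these WT genes and 85.2% of the 3953 such Ube3a2X genes tested in WT. Across the 20869 genes tested in both, which are not independent replicates, the log2 fold changes had a Pearson r of 0.964 and a Spearman rho of 0.923 and a median absolute difference of 0.139. Slc17a7 was at 10.28 and Slc17a6 at −5.36 in Ube3a2X mice, Tbr1 at 7.50, Pmch at −10.62, Dlk1 at −9.10, Egr3 at 5.93, and Fos at 0.26. Region by genotype, tested in all 38 libraries, called 0 of 22282 genes (0%; edgeR, smallest adjusted p = 0.1909), and 2333 had an unadjusted p under 0.05. The latter share of the genes was above the 0.05 that chance alone gives. DESeq2 called 4 (Gm37107, Gm37298, Gm38359, and the potassium channel gene Kcnj5) and limma-voom 0 (2235 unadjusted).

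**Figure D5:**
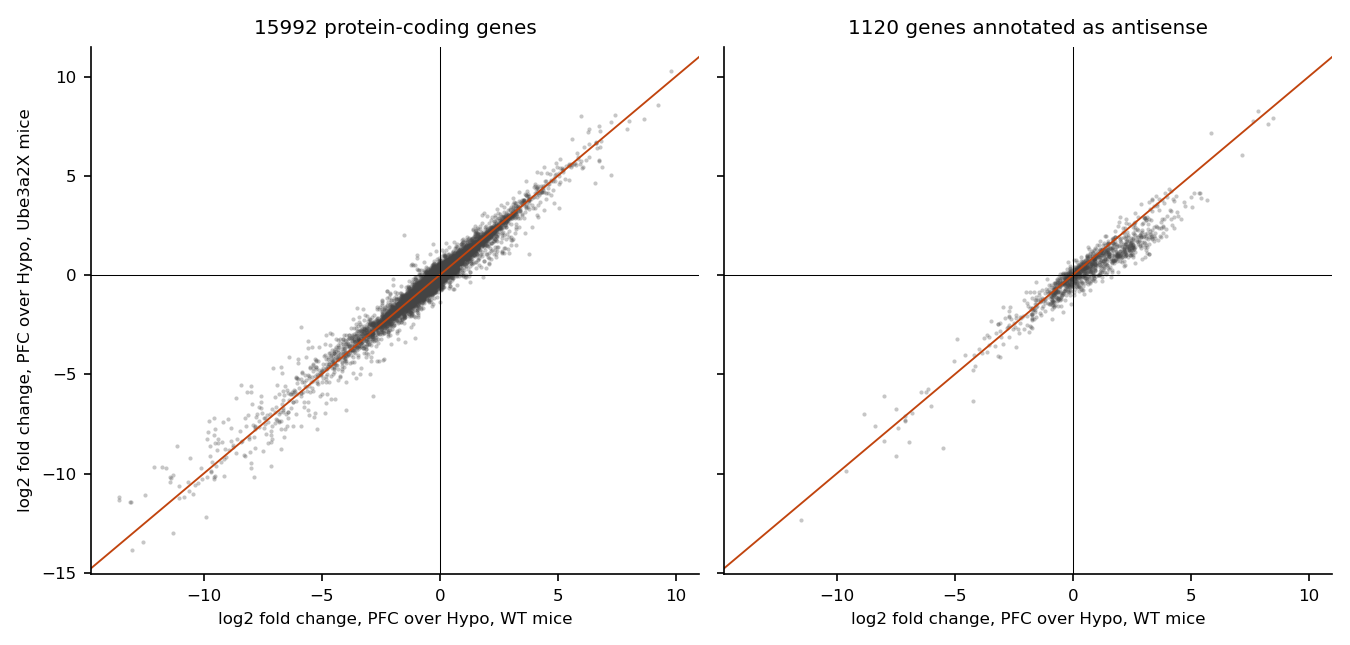
Log2 fold change of PFC over Hypo in WT mice (x axis) against Ube3a2X mice (y axis) for protein-coding genes (left) and genes annotated as antisense (right); each point is a gene and the orange line marks equal values. Coding genes follow the line (r of 0.964 over all genes), and the median of the tested antisense genes was 0.70 in WT and 0.31 in Ube3a2X mice.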

How the data were processed

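RNA from the PFC and the Hypo of WT and Ube3a2X mice was sequenced as paired-end reads from TruSeq Stranded mRNA libraries. The authors aligned reads with STAR to GRCm38 (mm10) and deposited raw read counts per gene from featureCounts (versions not given in the sources used here) together with their quality control, which holds fractions (such as coding bases), ratios (5′-to-3′ coverage), scores (such as RIN), and read counts. Gene identifiers matched GENCODE vM21 for 53905 of 54165 genes. From the deposited counts, genes were kept by filterByExpr of edgeR (minimum count 10), scaled by TMM, and fitted with region and sex by the quasi-likelihood test of edgeR 4.0.16 in R 4.3.3, with Benjamini-Hochberg adjustment. The study fitted each region separately. The table holds more WT PFC libraries per sex than the study's text states, and all labelled libraries were used. A second test (glmTreat) used a 2-fold threshold. Quality measures were compared by exact permutation within sex. DESeq2 1.42.0, limma 3.58.1 (voom), sva 3.50.0, and Python 3.11.15 with numpy 2.4.6, pandas 2.3.3, and scipy 1.17.1 served alternatives and tables. The main regional test was also run on simulated counts with known changes.

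Named are, per direction, the 12 genes with the largest changes (2-fold test passed, no overlap, at least 10 CPM) and the 5 with the smallest p, and up to 4 members per list with those against its direction. Other list members were named for their known roles after their values were seen. Members and lists were chosen with earlier results of these data known. The 4 mice that gave both regions pair their libraries by design. Their libraries' deviations from the group means correlated at 0.005, −0.093, 0.038, and 0.191, and the main test had no block. All intervals and bounds cover counting error only. Replicate libraries differed by 11.5 to 504 times the sampling noise. Some genes are not reported here.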

Additional observations from a re-analysis of the deposited data

Results flagged for a closer look

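The 12 quality measures and 36 genes were screened in each of the 4 groups of WT libraries for a lowest or highest library far from the others (Dixon's test), and 20 of 192 screens found one. Chance flags about 1 in 20 groups. Of the 20, 5 belonged to Hypo female 471. It had the fewest counted reads (39.0 M), the lowest share of coding bases (37.5%), the highest share of UTR bases (53.7%), the highest share of ribosomal bases (1.51%), and the highest share of reads in the 10 most abundant genes (6.71%) of the Hypo females. The report gives Pmch, Avp, Oxt, Hcrt, Kiss1, Prl, Gh, and Cga with this library and without it.

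PFC female 397 stood apart from the other PFC females with the highest share of coding bases (51.9%), the lowest share of UTR bases (40.3%), and the highest CPM of Neurod2 (95.5), Rtn4rl2 (39.6), and Slc17a7 (1890). PFC female 395 had the highest share of reads on the expected strand (95.6%). Among the PFC males, 256 had the highest Ddx3y (101 CPM) and 245 the lowest Mpped1 (265 CPM).

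Among the Hypo males, 423 had the lowest RIN (6.8) and the highest AT dropout (23.2), and 403 had the highest share of coding bases (50.2%) and the highest coefficient of variation of coverage (0.481). Male 245 had the highest CPM of the cortical genes Ankrd33b (4.76) and C730002L08Rik (0.181), and it also had the highest Slc17a7 (8.44 CPM) of the Hypo libraries. Male 251 had the highest Oxt (53.6 CPM) of the males.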

How the results depend on the processing

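The 14032 called genes became 12208 (RIN) to 16112 (no filter) under 11 settings: other scaling (relative log expression factors, library totals), DESeq2, limma-voom, no filter, no sex term, RIN, RIN with 2 surrogate variables, a GC and length offset, and the replicate block. The filter steps of the study (genes under 100 reads in 2 or more libraries, then the 15% of lowest variance), applied here across both regions together where the study applied them to each region, removed genes nearly absent from 1 region and left 10941 genes, with 7109 called (3364 PFC, 3745 Hypo) and 1324 past 2-fold (887 PFC, 437 Hypo), so that 67.0% of the latter were higher in the PFC against 51.4% without it. Library totals alone gave 4864 PFC and 10275 Hypo calls (32.1% PFC against 47.6%), and 1747 and 2613 past 2-fold (40.1% PFC). With the strand share, which tracks the region, 7644 were called (3643 PFC, 4001 Hypo) and 2449 passed 2-fold (1156 PFC, 1293 Hypo). Of 175 named genes, 173 were called in the main comparison. Of these, 129 kept their call there and 44 lost it, 7 of them with a turned sign: Vtn (−0.00), Gria1 (0.13), Chgb (−0.04), Pdgfra (0.01), Cdkn1c (−0.40), Cldn5 (−0.17), and Npw (−0.13). The cause was not tested. DESeq2 called 2 genes for region by sex and 4 for region by genotype, and gave no adjusted p for Prl and Slc17a7.

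With the replicate block, pairing the regions within 4 mice, 13216 genes were called and 4022 passed 2-fold, with 9 of the 173 named calls lost and 1 gained, and with all 18 libraries and the mouse as block (limma-voom) 14244 and 3875. In these 4 mice the regions differed by −1.2 in RIN, −4.91 points in strand share, 0.196 points in intergenic bases, −0.213 in 5′-to-3′ bias, and −2.46 in AT dropout, and the exact test cannot go below p = 0.125 there.

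Leaving out 1 library gave 13691 to 15574 calls, 4124 to 4579 past 2-fold, 0 for region by sex, and 0 to 1 for region by genotype. The most calls came without Hypo female 471. The differences in quality measures ranged from −9.6 to −5.1 M counted reads, −4.45 to −2.65 points of coding, 3.19 to 4.89 of UTR, −0.985 to −0.626 of intronic, and 0.186 to 0.348 of ribosomal bases, 0.00757 to 0.0438 in coverage variation, and 0.242 to 0.866 points in the share of the 10 most abundant genes. Counts of 39.0 to 70.6 M reads limit the genes at a few reads: bounds or counting intervals are given where a region had at most 3 counts in all, and fitted fold changes of genes with few more counts, such as Avp and Hcrt, depend on the prior count.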
